A study of Mus musculus with 6 samples.

Results

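The lipid droplet and lipolysis genes described here are 10 genes picked by symbol for what their proteins do, out of 24411 genes listed for the Sol (soleus) muscle: Pnpla2, Abhd5, G0s2, Lipe, Mgll, Lpl, Plin2, Plin3, Plin4 and Plin5. All 10 passed the filter on low counts, which left 12828 genes for the test. Poly(A) RNA from whole Sol was sequenced in 3 WT and 3 LSD1-mKO mice, 1 library per mouse, to ask how loss of the histone demethylase LSD1 in muscle alters the transcriptome after voluntary wheel running (VWR). The LSD1-mKO mice were Lsd1 flox/flox and heterozygous for a transgene in which the human ACTA1 promoter, active in skeletal muscle fibers, drives the tamoxifen-dependent recombinase CreERT2, while the WT mice carried the floxed Lsd1 gene without CreERT2. Both genotypes are labelled C57BL/6, were 8 weeks old when they were given a running wheel for 38 days, and both received tamoxifen at 75 mg/kg on 5 days in a row after 3 days of getting used to the wheel. Running was then recorded over 30 days, and the mice were taken off the wheel and fasted before the tissue was collected. All 6 mice had run, and sedentary mice were not analysed here. Since LSD1-mKO mice alone carry the transgene, its presence and the loss of LSD1 cannot be told apart.

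Triglyceride is stored in lipid droplets, and in oxidative muscle fibers these lie close to mitochondria and supply fatty acids during endurance exercise. Adipose triglyceride lipase, encoded by Pnpla2, starts the breakdown of the stored triglyceride. The protein of Abhd5 (CGI-58) activates it and that of G0s2 inhibits it, and hormone-sensitive lipase (Lipe) and monoglyceride lipase (Mgll) complete the release of the fatty acids. Perilipins (the Plin genes) coat the droplet and govern the access of these lipases. Lipoprotein lipase (Lpl) is secreted by muscle fibers and adipocytes and works on the capillary wall, where it frees fatty acids from circulating lipoproteins.

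The totals ran from 8940206 estimated counts in WT replicate 1 to 13798059 in LSD1-mKO replicate 2. Kdm1a, which encodes LSD1, measured 40.5, 38.2 and 33.6 CPM in WT and 14.6, 16.6 and 16.6 CPM in LSD1-mKO. Here and throughout, CPM are counts per 1000000 after TMM normalization, and the 3 values of a genotype are in the order of replicates 1, 2 and 3. Kdm1a fell, by 1.23 on the log2 scale with a standard error of 0.11 (edgeR's quasi-likelihood test, adjusted p = 0.0160 by Benjamini-Hochberg). The call was lost in 4 of the 6 fits with 1 mouse left out, where the adjusted p was 0.116 when WT replicate 2 was missing and 0.111, 0.143 or 0.209 when LSD1-mKO replicate 1, 2 or 3 was, and with the replicate number as a block (adjusted p = 0.299), while the log2 fold change stayed between -1.30 and -1.17. WT replicate 1 stood apart from the other WT mice in markers of connective tissue and immune cells. The summed level of 6 fibroblast markers was 974 CPM in WT replicate 1 against 2683 and 3137 CPM in WT replicates 2 and 3, and 2099, 1143 and 1245 CPM in the LSD1-mKO mice. The summed level of 5 macrophage markers was 50.7 CPM in WT replicate 1, 161 and 146 CPM in the other WT mice and from 51.8 to 108 CPM in LSD1-mKO. The samples had markers of slow and of fast fibers. Myh7, the myosin of slow fibers, was between 11230 and 15150 CPM. Myh2, the myosin of type IIA fibers, was between 14850 and 26500 CPM. Myh1, the myosin of type IIX fibers, was between 2353 and 6072 CPM, and Myh4, that of type IIB fibers, between 15.0 and 40.6 CPM. The 6 slow fiber markers summed to between 26310 and 33100 CPM. The 7 fast fiber markers, Myh2 among them, summed to between 33460 and 51420 CPM. In CPM the fast fiber sum was the higher in every mouse, in LSD1-mKO replicate 2 by little (33460 against 33100 CPM). CPM are not scaled by transcript length, so these sums do not rank fast against slow fiber RNA.

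Between the genotypes, no lipid droplet or lipolysis gene passed an adjusted p of 0.05 over all genes tested with edgeR, and none did with DESeq2 or limma voom. Over all 12828 genes, 2 passed with edgeR, which is 0.0156%. At an unadjusted p under 0.05, edgeR and DESeq2 found 0 of the 10 and limma voom found 1 (Abhd5), where 6.4% of all genes tested passed with edgeR, 4.5% with DESeq2 and 6.31% with limma voom. The fitted level was higher in LSD1-mKO for 6 genes and lower for 4, with a median log2 fold change of 0.08, beside a median of -0.02 and quartiles of -0.15 and 0.09 over all genes tested. The genotypes did not overlap for 1 of the 10, Abhd5, and it was higher in LSD1-mKO. Among all genes tested, 12.7% had no overlap, 6.63% being higher and 6.1% lower in LSD1-mKO. Mgll and Plin5 are also in the cluster of genes that the study picked on these same mice for higher levels in LSD1-mKO, so their direction here is not independent evidence.

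The 5 windows below are printed because they hold the motifs found in this set (Abhd5, Lipe and Mgll) or belong to the genes that varied most between mice (G0s2 and Plin5). Each is the 250 bases before a RefSeq start site in GRCm38.p6, written 5' to 3' along the strand of the gene. Capitals mark a motif match, and windows without a match are all in lower case.
Abhd5, chr9:122351366-122351615, plus strand: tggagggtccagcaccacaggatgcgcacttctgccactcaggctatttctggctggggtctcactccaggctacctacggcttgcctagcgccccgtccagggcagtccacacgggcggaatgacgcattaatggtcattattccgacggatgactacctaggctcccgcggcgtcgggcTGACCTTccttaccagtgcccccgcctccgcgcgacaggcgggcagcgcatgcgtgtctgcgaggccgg
Lipe, chr7:25395988-25396237, minus strand: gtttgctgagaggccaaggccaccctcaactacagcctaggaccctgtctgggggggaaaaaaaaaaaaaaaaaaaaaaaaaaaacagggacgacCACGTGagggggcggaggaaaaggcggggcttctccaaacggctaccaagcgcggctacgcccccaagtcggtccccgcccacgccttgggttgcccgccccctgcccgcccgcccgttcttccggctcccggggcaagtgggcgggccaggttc
Mgll, chr6:88724162-88724411, plus strand: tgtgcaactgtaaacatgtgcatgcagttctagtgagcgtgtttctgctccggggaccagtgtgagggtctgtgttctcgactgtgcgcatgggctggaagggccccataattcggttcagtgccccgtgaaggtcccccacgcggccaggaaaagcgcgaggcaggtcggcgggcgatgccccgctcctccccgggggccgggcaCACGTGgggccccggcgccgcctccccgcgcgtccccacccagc
G0s2, chr1:193273189-193273438, minus strand: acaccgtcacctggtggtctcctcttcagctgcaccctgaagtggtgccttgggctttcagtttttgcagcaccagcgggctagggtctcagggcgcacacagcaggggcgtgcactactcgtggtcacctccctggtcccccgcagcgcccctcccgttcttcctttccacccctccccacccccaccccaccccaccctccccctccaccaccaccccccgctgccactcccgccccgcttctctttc
Plin5, chr17:56117549-56117798, minus strand: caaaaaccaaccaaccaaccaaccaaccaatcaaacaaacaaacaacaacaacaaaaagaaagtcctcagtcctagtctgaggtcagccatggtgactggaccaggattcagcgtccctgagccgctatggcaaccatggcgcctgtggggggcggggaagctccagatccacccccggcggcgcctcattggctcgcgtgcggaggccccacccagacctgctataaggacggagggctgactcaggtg

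RefSeq windows were found for 9 of the 10 genes, 12 windows in all, and Lpl had none. Both strands were searched for 4 motifs. The core of the estrogen-related receptor (ERR) element, AAGGTCA, occurred in 1 of the 12 windows, that of Abhd5, where it reads TGACCTT from the other strand and begins 69 bases before the start site. The same core was in 4.08% of the 32851 windows of all genes. Its longer form TCAAGGTCA, which contains the core, was in none of the 12 and in 0.387% of all windows. The direct repeat bound by PPAR-RXR was in none of the 12 and in 0.338% of all windows. The E-box CACGTG, the same on both strands, began 155 bases before the printed start site of Lipe and 44 bases before that of Mgll. It was in 6.02% of all windows. Lipe, Mgll and Plin5 each had another window, not printed, that held none of the 4 motifs. These matches describe the letters of the windows and were not tested for use by any factor.

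Levels of different genes were compared per transcript length, as transcripts per 1000000 transcripts (TPM), over all 6 mice. Lpl had the highest level, with 1495 ± 304 TPM (SD, n = 6), followed by Pnpla2 with 442 ± 62.8 TPM (SD, n = 6) and Plin4 with 232 ± 45.3 TPM (SD, n = 6). These 3 stood in this order in every mouse, and their ranges did not overlap. The other coat genes formed a middle group with Mgll and G0s2, with means of 88.7 TPM for Plin5, 82.1 TPM for Mgll, 70.7 TPM for Plin2, 69.8 TPM for Plin3 and 57.8 TPM for G0s2, and the ranges of neighbours in this group overlapped. With all exons merged as the length, 6 of the 10 genes kept their place, among them the 4 highest, and the mean of Lpl was 827 TPM and that of Pnpla2 541 TPM. Abhd5 had 41.9 ± 4.21 TPM (SD, n = 6) and Lipe the lowest level, 33.8 ± 3.46 TPM (SD, n = 6), and Abhd5 was above Lipe in every mouse. The RNA of the intracellular lipase Pnpla2 was thus at a higher level than that of its activator Abhd5 and its inhibitor G0s2 in every mouse.

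**Figure D1:**
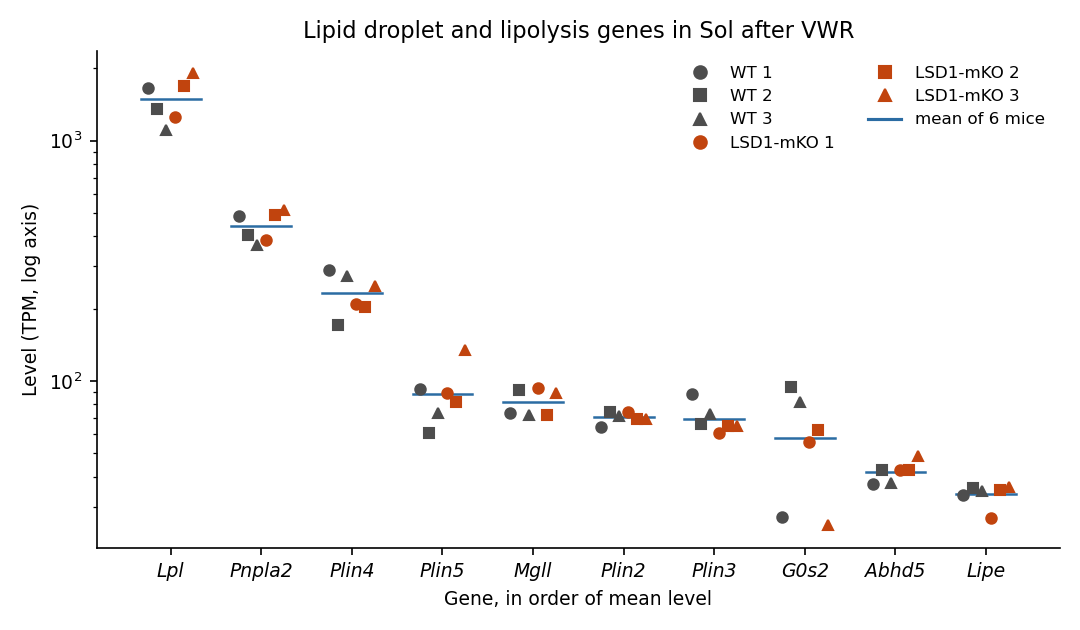
Level of each gene per transcript length (TPM, log axis) in the 6 mice, with genes in order of their mean. Points are mice (gray for WT, orange-red for LSD1-mKO, shape for the replicate number) and lines are means of 6 mice. Lpl lies between 1106 and 1906 TPM, above every other gene, and the points of G0s2 spread from 25.1 to 94.2 TPM.

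Pnpla2 (chromosome 7, 141455198 to 141460743, plus strand, GRCm38) measured 626, 446 and 431 CPM in WT and 461, 582 and 610 CPM in LSD1-mKO. The highest value was in a WT mouse and the genotypes overlapped. Its log2 fold change of LSD1-mKO over WT was 0.14 (95% interval -0.25 to 0.53, adjusted p = 0.895, edgeR). Abhd5 (chromosome 9, 122351608 to 122381524, plus strand) measured 57.4, 56.4 and 52.9 CPM in WT and 61.3, 61.1 and 69.5 CPM in LSD1-mKO. No WT mouse reached the lowest LSD1-mKO mouse, and LSD1-mKO replicate 3 was the highest. The log2 fold change was 0.20 (95% interval -0.0014 to 0.41), with an unadjusted p of 0.0513 and an adjusted p of 0.766 in edgeR. An exact permutation test of the CPM, 2-sided, gave p = 0.1, the smallest that 3 mice against 3 allow.

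G0s2 (chromosome 1, 193272161 to 193273217, minus strand) varied most of the 10 genes between mice. It measured 11.6, 34.5 and 31.7 CPM in WT and 22.1, 24.6 and 9.87 CPM in LSD1-mKO. The low values were in a mouse of each genotype, WT replicate 1 and LSD1-mKO replicate 3, and the genotypes overlapped. The coefficient of variation over the 6 mice was 45.2%, at the 98.5 percentile of the 10211 genes tested that have a mean of at least 5 CPM. With edgeR, LSD1-mKO over WT was -0.46 on the log2 scale (95% interval -1.42 to 0.49, adjusted p = 0.865, edgeR). The 2 mice low in G0s2 were the 2 highest in Pnpla2, and the summed fibroblast markers were lowest in WT replicate 1 (974 CPM) and at 1245 CPM in LSD1-mKO replicate 3. LSD1-mKO replicate 2 had a lower fibroblast sum than the latter, 1143 CPM, with G0s2 at 24.6 CPM. The sum of 9 adipocyte markers, described below, was also lowest in WT replicate 1 (583 CPM) and LSD1-mKO replicate 3 (579 CPM). Without Fabp4, the largest of the 9, these sums were 174 and 202 CPM. By that measure WT replicate 2 (180 CPM) and LSD1-mKO replicate 1 (186 CPM) were below LSD1-mKO replicate 3. The part of fibroblast or adipocyte markers in the level of G0s2 was not tested.

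Lipe (chromosome 7, 25379527 to 25398710, minus strand) measured 60.8, 55.8 and 57.7 CPM in WT and 45.7, 59.4 and 60.6 CPM in LSD1-mKO. LSD1-mKO replicate 1 was below the other 5 mice, which lay between 55.8 and 60.8 CPM. The log2 fold change was -0.07 (95% interval -0.34 to 0.20, adjusted p = 0.928, edgeR). Mgll (chromosome 6, 88724412 to 88828360, plus strand) measured 144, 154 and 128 CPM in WT and 169, 131 and 161 CPM in LSD1-mKO. Its genotypes overlapped, with a log2 fold change of 0.12 (95% interval -0.16 to 0.39, adjusted p = 0.879, edgeR).

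Lpl (chromosome 8, 68880491 to 68907448, plus strand), the uptake lipase, measured 3339, 2333 and 2020 CPM in WT and 2359, 3146 and 3539 CPM in LSD1-mKO. WT replicate 1 lay with LSD1-mKO replicates 2 and 3, and LSD1-mKO replicate 1 with the other WT mice. Between the genotypes the log2 fold change was 0.23 (95% interval -0.27 to 0.74, adjusted p = 0.868, edgeR). Lpl and Pnpla2 followed each other across the mice more closely than any other pair of the 10 genes: after centring each gene on its mean over the 6 libraries, the root mean square difference of their log2 CPM was 0.09. This nearness is a description of 6 libraries and was not tested.

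**Figure D2:**
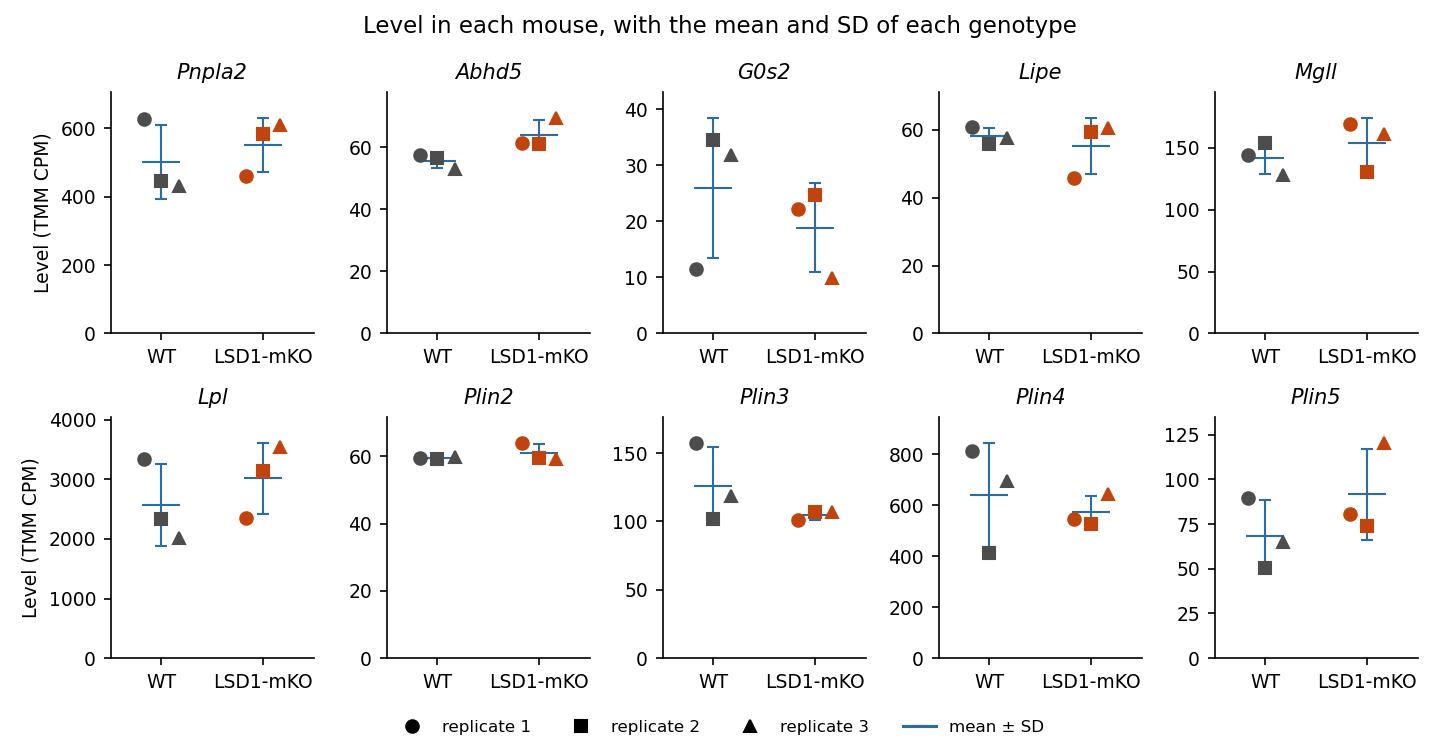
Level of each gene (TMM CPM, linear axis from 0) in each mouse by genotype, with the shape giving the replicate number and blue lines the mean ± SD of 3 mice. Only the points of Abhd5 do not overlap between the genotypes, and those of Plin2 lie between 59.2 and 64.1 CPM in all 6 mice.

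The coat genes Plin3, Plin4 and Plin5 lie on the minus strand of chromosome 17, with 1797 bases between Plin4 (56100591 to 56109803) and Plin5 (56111601 to 56117596) and 159879 bases between Plin5 and Plin3 (56277476 to 56292873). Plin5, the perilipin of oxidative tissues, which links droplets to mitochondria, measured 89.8, 50.6 and 64.8 CPM in WT and 80.5, 73.8 and 121 CPM in LSD1-mKO. LSD1-mKO replicate 3 was the highest mouse, and WT replicate 1 lay above LSD1-mKO replicates 1 and 2. Its log2 fold change was 0.42, the largest of the 10 in the upward direction, with a 95% interval of -0.12 to 0.97, an unadjusted p of 0.112 and an adjusted p of 0.777 in edgeR. Its coefficient of variation over the 6 mice was 30.0%, at the 94.3 percentile of the genes with a mean of at least 5 CPM.

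Plin4, abundant in muscle and adipose tissue, measured 812, 413 and 697 CPM in WT and 546, 527 and 644 CPM in LSD1-mKO. The WT mice held both the highest and the lowest value, and the log2 fold change was -0.16 (95% interval -0.67 to 0.35, adjusted p = 0.909, edgeR). Plin3, found in the cytosol and on young droplets, measured 158, 102 and 118 CPM in WT and 101, 107 and 107 CPM in LSD1-mKO. WT replicate 1 was above the other 5 mice, and the log2 fold change was -0.26 (95% interval -0.60 to 0.081, unadjusted p = 0.116, adjusted p = 0.777, edgeR). The fitted values of these 3 neighbours on chromosome 17 differed in sign, but all 3 intervals include 0 and none passed the test. Whether their directions differ is thus not settled.

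Plin2 (chromosome 4, 86648386 to 86670060, minus strand), the perilipin of most cell types, whose protein follows the amount of stored lipid, was among the steadiest genes in Sol. It measured 59.6, 59.2 and 59.7 CPM in WT and 64.1, 59.6 and 59.2 CPM in LSD1-mKO. The coefficient of variation over the 6 mice was 3.14%, at the 1.18 percentile of the genes with a mean of at least 5 CPM, whose median was 10.8%. LSD1-mKO over WT was 0.04 on the log2 scale (95% interval -0.14 to 0.21, adjusted p = 0.945, edgeR).

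**Figure D3:**
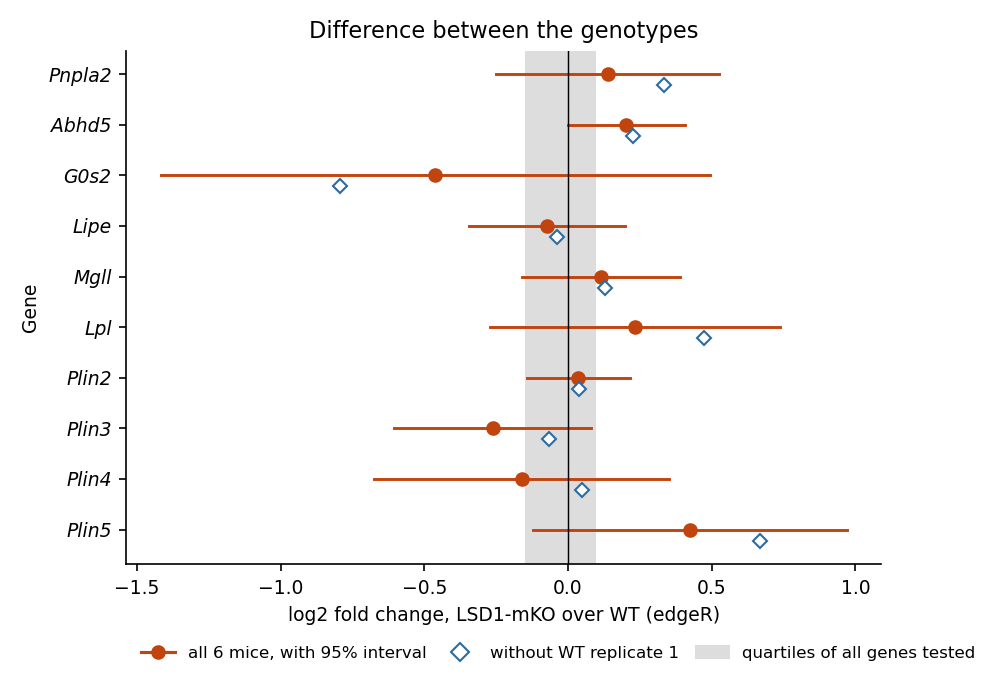
Difference of each gene between the genotypes as the log2 fold change of LSD1-mKO over WT from edgeR, with bars for the 95% interval and open diamonds for the value without WT replicate 1. The gray band spans the quartiles of all genes tested, -0.15 to 0.09. All 10 intervals include 0, and that of Abhd5 ends at -0.0014.

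Several of these values depended on single mice, WT replicate 1 among them. WT replicate 1 was the highest of the 6 mice for 4 of the 10 genes (Pnpla2, Lipe, Plin3 and Plin4) and the lowest for none. Without it, edgeR gave an unadjusted p under 0.05 for 5 of the 10 genes, when 14.4% of the genes tested in that fit passed, and no gene of the 10 passed an adjusted p of 0.05. Over all alternatives run, the adjusted p of these 5 lay between 0.261 and 1. The log2 fold changes without it were 0.67 for Plin5 (unadjusted p = 0.0164, adjusted p = 0.261), 0.47 for Lpl (0.0262 and 0.297), 0.33 for Pnpla2 (0.0313 and 0.308), 0.23 for Abhd5 (0.0471 and 0.341) and -0.79 for G0s2 (0.0333 and 0.309). Without WT replicate 3, in contrast, Lpl was at 0.088 and Pnpla2 at 0.041. The value of Plin4 without WT replicate 1 turned to 0.05 and that of Plin3 was -0.07. Leaving out WT replicate 2 instead moved Plin3 and Plin4 the other way, to -0.39 and -0.40. There edgeR gave an unadjusted p of 0.0226 and 0.0218 and an adjusted p of 0.826 for both, and 5.68% of all genes had an unadjusted p under 0.05. Without LSD1-mKO replicate 3 the log2 fold change of Plin5 was 0.18 and that of G0s2 was -0.16, and without LSD1-mKO replicate 1 that of Lipe was 0.05 and that of Plin2 was -0.00095. Without WT replicate 3, LSD1-mKO replicate 1, 2 or 3, 0 of the 10 genes had an unadjusted p under 0.05, when 4.14%, 7.35%, 5.59% and 3.78% of all genes did. Fibroblast and macrophage markers were lowest in WT replicate 1, and their part in these values was not tested.

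Ratios of the TPM of 2 genes within a mouse do not depend on the normalization between libraries, and 4 were compared. Pnpla2 over its inhibitor G0s2 was 17.9, 4.29 and 4.51 in WT against 6.91, 7.85 and 20.5 in LSD1-mKO. The 2 mice low in G0s2, of different genotype, had ratios over 2 times those of the other 4. Abhd5 over G0s2 was 1.37, 0.452 and 0.460 in WT and 0.764, 0.685 and 1.94 in LSD1-mKO. Plin5 over Plin2 was 1.43, 0.812 and 1.03 in WT and 1.19, 1.18 and 1.94 in LSD1-mKO. Lpl over Pnpla2 was the steadiest, with 3.40, 3.34 and 2.99 in WT and 3.27, 3.45 and 3.70 in LSD1-mKO. The size of a ratio depends on the transcript length used, which scales all 6 mice alike and leaves the difference between genotypes as it is. With merged exons, a length tried after the data were seen, Abhd5 over G0s2 was 0.53 times as large and exceeded 1 in LSD1-mKO replicate 3 alone, at 1.03, Plin5 over Plin2 was 1.77 times as large, and Lpl over Pnpla2 ran from 1.35 to 1.67. On the log2 scale LSD1-mKO exceeded WT by 0.56, 0.61, 0.39 and 0.10 for the 4 ratios in this order, with exact permutation p of 0.5, 0.5, 0.4 and 0.4 (2-sided, smallest possible 0.1, each 0.5 after Benjamini-Hochberg adjustment over the 4). The genotypes overlapped for all 4 ratios, and the first 3 differences became 1.24, 1.14 and 0.61 when WT replicate 1 was left out and 0.07, 0.14 and 0.16 when LSD1-mKO replicate 3 was.

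**Figure D4:**
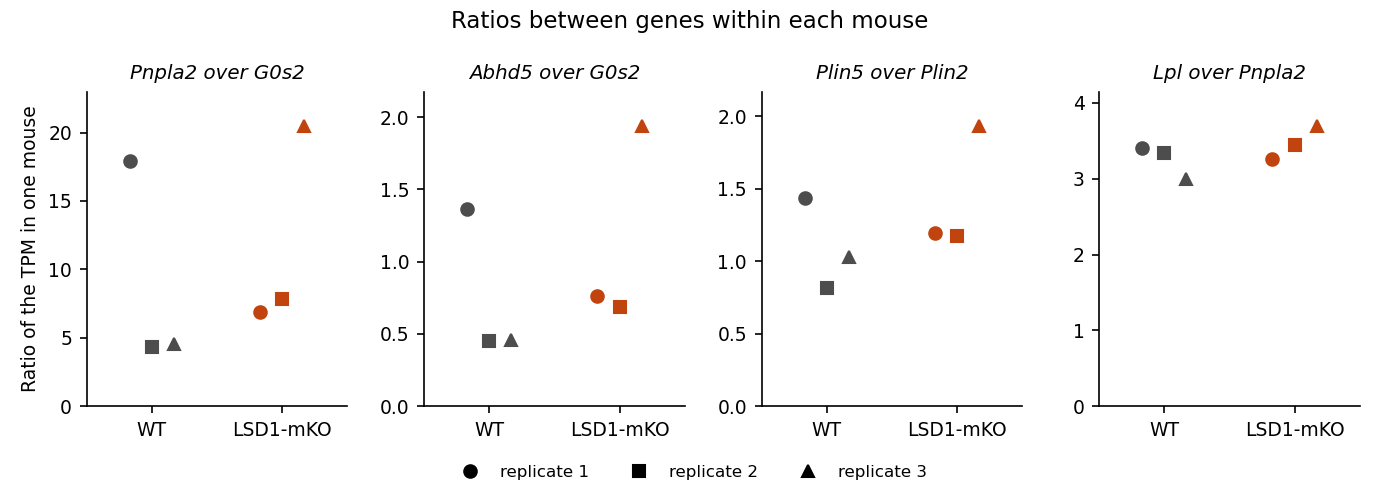
Ratio of the TPM of 2 genes within each mouse, by genotype, on linear axes from 0, with the shape giving the replicate number. Pnpla2 over G0s2 is 17.9 in WT replicate 1 and 20.5 in LSD1-mKO replicate 3 and between 4.29 and 7.85 in the other mice, while Lpl over Pnpla2 stays between 2.99 and 3.70.

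The genes nearest to G0s2 and Plin5 across the 6 libraries, out of genes with a mean of at least 5 CPM, were named by the same root mean square difference of centred log2 CPM. For G0s2 they were Scd1, the stearoyl-CoA desaturase (0.22), Pamr1 (0.24) and Gja1, which encodes connexin 43 (0.28). For Plin5 they were Cables1 (0.14), Bdh1, the mitochondrial ketone body enzyme (0.14), and Cnksr2 (0.14). These are descriptions over 6 libraries with no test.

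Several of the 10 genes are abundant in adipocytes, which whole Sol can hold. The 9 adipocyte markers summed to between 579 and 694 CPM in the 6 mice, with 629 ± 58.4 CPM (SD, n = 3) in WT and 612 ± 33.8 CPM (SD, n = 3) in LSD1-mKO (exact permutation test, 2-sided, p = 0.7). In edgeR, 0 of the 9 passed an adjusted p of 0.05, as 0.0156% of all genes tested did. At an unadjusted p under 0.05 there were also 0 of the 9, where 6.4% of all genes tested passed, so few of 9 would pass at that share. Most of the sum was Fabp4, also made by capillary endothelium, at 374 to 460 CPM. Without Fabp4 the sum varied more between mice, from 174 CPM in WT replicate 1 to 274 CPM in WT replicate 3. Its means were 209 CPM in WT and 208 CPM in LSD1-mKO. Adiponectin (Adipoq) was between 13.3 and 21.0 CPM, adipsin (Cfd) between 87.9 and 141 CPM and Plin1, the perilipin of adipocytes, between 4.46 and 11.9 CPM. Of the 3 brown adipocyte markers, Ucp1, the uncoupling protein that defines these cells, had 0 counts in every library, and Elovl3 was between 0.724 and 2.77 CPM. The other, Cidea, which also promotes droplet fusion, was described after its values were seen and measured 13.1, 7.29 and 7.64 CPM in WT and 14.4, 10.1 and 14.8 CPM in LSD1-mKO. Its genotypes overlapped, and LSD1-mKO over WT was 0.50 on the log2 scale (unadjusted p = 0.0799, adjusted p = 0.766, edgeR), the highest value of the droplet formation, coat and fusion genes below. In whole muscle, fewer cells of a type and less RNA per cell cannot be told apart.

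Of 84 further genes of the pathway, listed by function, 83 were found in the table and 70 were tested. None passed an adjusted p of 0.05 with edgeR, DESeq2 or limma voom. At an unadjusted p under 0.05, edgeR found 3 higher and 6 lower in LSD1-mKO, where 3.52% of all genes were higher and 2.88% lower, and the median log2 fold change of the 70 was -0.04. The number at an unadjusted p under 0.05, 9 in all, was 18 without WT replicate 1 and 4 without WT replicate 3, when 14.4% and 4.14% of all genes passed in those fits. The genotypes did not overlap for 5 that were higher and 5 that were lower, beside 6.63% and 6.1% of all genes tested. Of the 19 tested genes of droplet formation, coat and fusion, 1 was higher and 1 lower at an unadjusted p under 0.05. Fitm1 and Fitm2, which move new triglyceride into droplets, had log2 fold changes of -0.12 (adjusted p = 0.848) and 0.17 (adjusted p = 0.839), Bscl2 (seipin) -0.00025, Cidec, a droplet fusion protein, 0.09, Plin1 -0.18, Hilpda, another inhibitor of the Pnpla2 lipase, -0.08, and Rab18, a droplet GTPase, 0.08.

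None of the 14 tested genes of triglyceride synthesis had an unadjusted p under 0.05 in edgeR, where 6.4% of all genes tested did. Dgat1, which makes the last step of the synthesis, measured 14.4, 14.3 and 12.6 CPM in WT and 11.2, 12.6 and 9.97 CPM in LSD1-mKO. The LSD1-mKO mice all lay below the WT mice, with 12.62 CPM in the lowest WT mouse and 12.59 CPM in the highest LSD1-mKO mouse, and the log2 fold change was -0.28 (adjusted p = 0.766, edgeR). Gpam, Lpin1 and Dgat2, also enzymes of the synthesis, had log2 fold changes of -0.24, -0.18 and -0.10. Among the 12 tested hydrolases, none of which had an unadjusted p under 0.05, Lipa, the lysosomal lipase, had -0.10 and Abhd6, another monoglyceride lipase, 0.29.

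Among genes that mature Lpl or handle lipoproteins, 10 of 11 were fitted lower in LSD1-mKO, as were 7027 of all 12828 genes tested. The median of the 11 was -0.16 on the log2 scale. Where 2.88% of all genes tested were lower at an unadjusted p under 0.05 in edgeR, 2 of the 11 were. Gpihbp1, which carries Lpl to the capillary surface, was 1 of them, at 62.1 ± 7.84 CPM (SD, n = 3) in WT and 51.8 ± 2.36 CPM (SD, n = 3) in LSD1-mKO. LSD1-mKO over WT was -0.26 on the log2 scale (unadjusted p = 0.0432, adjusted p = 0.766, edgeR), and the genotypes overlapped. Angptl4, an inhibitor of Lpl, had a log2 fold change of -0.17 and the receptor gene Vldlr 0.21. The summed endothelial markers, 7 genes, were 482 to 695 CPM in WT and 498 to 610 CPM in LSD1-mKO, with a log2 ratio of -0.15, and the log2 ratios of the summed macrophage and fibroblast markers were -0.58 and -0.60. The part of these cells in the levels of this group, and of Gpihbp1 as an endothelial gene, was not tested.

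Of the 14 tested genes that signal to lipolysis or let glycerol out, 2 were higher and 3 lower at an unadjusted p under 0.05 in edgeR. Among all genes tested, 3.52% were higher and 2.88% lower at that p. Npr1, the natriuretic peptide receptor, and Gk, the glycerol kinase gene listed as Gyk, were picked out with their values in view. Npr1 measured 28.6, 30.4 and 28.7 CPM in WT and 23.5, 21.2 and 20.4 CPM in LSD1-mKO, and Gk measured 4.34, 4.86 and 6.66 CPM in WT and 7.69, 8.47 and 10.9 CPM in LSD1-mKO. Npr1 had a log2 fold change of -0.43 (unadjusted p = 0.00176, adjusted p = 0.382) and Gk of 0.75 (unadjusted p = 0.00792, adjusted p = 0.578), each with no overlap, in edgeR. Among the other genes of this group, Prkaca, the catalytic subunit of protein kinase A, had a log2 fold change of 0.00059, Pde4d, which degrades cyclic AMP, 0.05 and the glycerol channel gene Aqp7 -0.06.

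**Figure D5:**
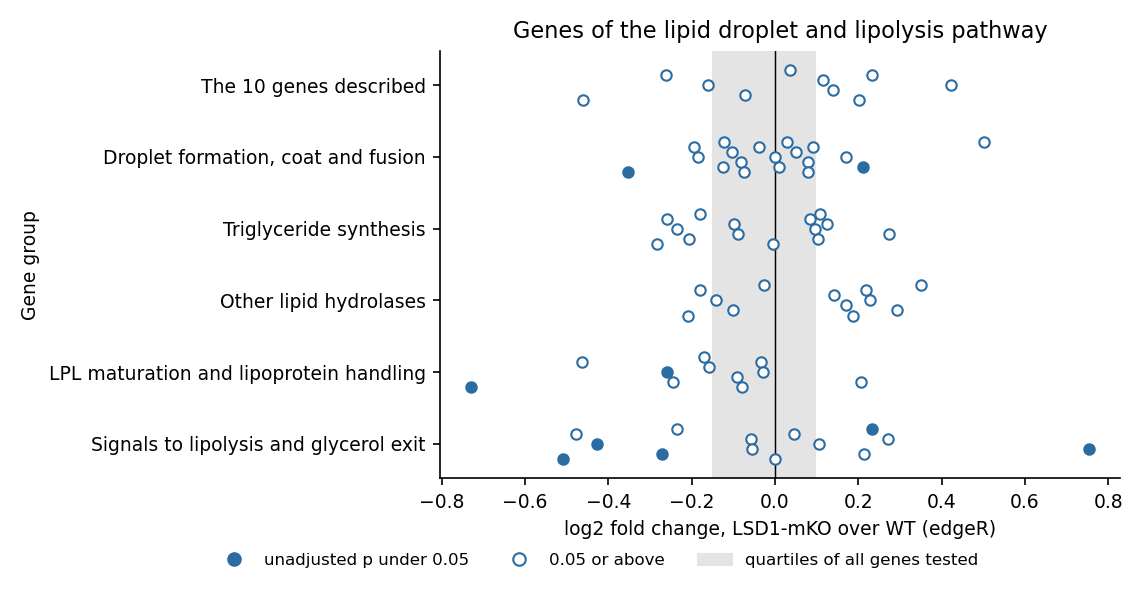
Log2 fold change of LSD1-mKO over WT (edgeR) for the 10 genes and the 70 tested pathway genes in 5 groups. Each circle is a gene, filled where its unadjusted p was under 0.05, and the gray band spans the quartiles of all genes tested. The filled circles are 0 of the 10 genes and 9 of the 70, and none passed an adjusted p of 0.05.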

How the data were processed

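The 6 Sol libraries were read from a single end over 75 bases. STAR placed the reads on mm10, and the deposited unit is the estimated count of a gene without normalization. Between 8.33% and 9.94% of the values of a library are not whole. The counting tool, its use of strand and the annotation are not given in the sources used here. Antisense genes overlap exons of Abhd5, Lipe and Mgll, and Hdgfl2 overlaps exons of Plin4, so reads of these pairs may not be told apart. A second deposited table holds the authors' own DESeq2 comparison and was not used.

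Columns were matched to mice by the number in the heading and the sample title. Counts were rounded and fitted with edgeR 4.0.16 (TMM, filterByExpr, quasi-likelihood test; R 4.3.3), and p-values of the 12828 genes were adjusted by Benjamini-Hochberg and called under 0.05. Fits by DESeq2 1.42.0 and by limma 3.58.1 (voom), other normalizations and filters, the replicate number as a block and each mouse left out were alternatives. The fits were tested on simulated data. TPM used the longest protein-coding transcript of GENCODE vM21 (GRCm38), and 99.7% of the counts had a length. Ratios and marker sums were compared by an exact permutation test over all 10 splits of the mice. No pair of libraries agreed within sampling noise (chi-square per gene at least 9.39). The labels give no more than 1 library per mouse, and p-values measure the spread between mice. Counts of PCR reads are not independent molecules.

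Named genes are the 10, Kdm1a, 20 of the 84 pathway genes and 11 markers fixed by name, and the nearest genes by likeness, and Npr1, Gk, Cidea and Elovl3 were added after their values were seen. A few genes of these lists are counted but not reported here by name. The 10 genes and the lists were chosen with earlier results of these data known. Ldaf1 had no matching row, and 4 pathway genes were matched through RefSeq synonyms.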

Additional observations from a re-analysis of the deposited data

How the results depend on the processing

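With 3 mice per genotype, a difference smaller than the spread between mice was not detectable, and the widest 95% interval, that of G0s2, ran from -1.42 to 0.49. The log2 fold changes of the 10 genes kept their sign in 137 of 140 refits. None of the 10 was called in any fit, so there was no call to lose. Their size did vary, from 0.041 to 0.33 for Pnpla2 and from 0.18 to 0.67 for Plin5. For 38 other genes, sign and call were unchanged in 488 of 532 refits. No lipid droplet, lipolysis or pathway gene passed an adjusted p of 0.05 under any alternative run. The number of genes called, 2 with edgeR, was 42 with DESeq2, 11 without a filter on low counts and 1 with the replicate block, and ranged from 1 to 3 with 1 mouse left out. Those with an unadjusted p under 0.05, 821 in all, ranged from 494 when LSD1-mKO replicate 3 was left out to 1885 when WT replicate 1 was. Of the 10 genes, 1 had an unadjusted p under 0.05 with limma voom, DESeq2 size factors, the upper quartile or at least 10 counts in every library (Abhd5), and 1 with the library size alone (Plin3); the number ranged from 0 to 5 with 1 mouse left out. Of the pathway genes it ranged from 4 to 18. Kdm1a was at -1.23 with the replicate block (adjusted p = 0.299) and lost its call there and in 4 fits with fewer mice. Deviations of same-numbered mice from the mean of their genotype correlated at -0.364, -0.0968 and -0.146. Deviations from a mean of 3 mice depend on each other, so these values cannot show whether mice were paired by number. The block changed no other call of a named gene. Among genes that changed sign with a mouse left out, log2 fold changes ran from -0.14 to 0.049 for Lipe, -0.00095 to 0.059 for Plin2, -0.40 to 0.047 for Plin4, -0.47 to 0.12 for Plin1, -0.046 to 0.22 for Cidec, -0.38 to 0.32 for Hilpda and for Angptl4, -0.048 to 0.067 for Bscl2, -0.42 to 0.038 for Lpin1, -0.25 to 0.10 for Dgat2, -0.25 to 0.024 for Lipa, -0.14 to 0.19 for Pde4d, -0.021 to 0.033 for Prkaca, -0.26 to 0.12 for Aqp7, -0.18 to 0.18 for Cfd, -0.16 to 0.0035 for Fabp4, -0.47 to 0.17 for Pdgfra, -0.14 to 0.062 for Myh7, -0.10 to 0.39 for Myh1 and -0.61 to 0.15 for Myh4. With all mice kept, Bscl2 was 0.0082 with DESeq2, 0.011 with limma voom, 0.0073 with DESeq2 size factors and 0.015 without a filter, and Hilpda was 0.013 with limma voom and 0.014 with the block. Prkaca was -0.00041 with limma voom, -0.0050 with the upper quartile, -0.022 with the library size alone, -0.00040 with at least 10 counts and -0.00012 with the block. The summed adipocyte markers, a log2 ratio of -0.04, ranged from -0.092 to 0.038 with 1 mouse left out. The cause of these changes was not tested. With merged exons as the length, 6 of the 10 genes kept their place in the order of levels.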
